A study of Mus musculus with 6 samples.

Results

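Integrins are receptors of the cell surface, each a pair of an alpha and a beta subunit, that bind extracellular matrix, complement fragments and adhesion molecules on other cells. The 10 integrin genes described here are the beta subunits Itgb2, Itgb5 and Itgb1 and the alpha subunits Itgam, Itgax, Itgal, Itgav, Itga6, Itga9 and Itga4. They were chosen as a list of integrin subunits of myeloid cells and matched by symbol to the Ensembl identifiers of the count files, which hold 53379 genes. All 10 matched 1 identifier each and all 10 passed the filter on low counts. The other 16 integrin subunit genes of the mouse served for comparison.

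RNA was sequenced from the cerebral cortex of C57BL/6 mice aged 2 months, as 3 libraries labelled wild type (replicates 1, 3 and 4) and 3 labelled GTF2ird1-/- (replicates 5, 6 and 7). Gtf2ird1 encodes a transcription factor, and it lies among the genes that people with Williams syndrome usually lack a copy of. The title names Gad2+ neurons as the material. The sources used here do not say how they were isolated, which part of the gene was mutated or whether each library came from its own animal, and p-values here reflect library-to-library spread alone, which may be technical.

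Levels are given as CPM (counts for every 1000000 of the library, with library sizes scaled by TMM, the trimmed mean of M-values), with wild type libraries in the order 1, 3, 4 and knockout-labelled libraries in the order 5, 6, 7. Gtf2ird1 itself was not lower where a knockout was labelled, at 49.7, 40.6 and 48.8 CPM against 23.3, 31.5 and 52.7 CPM in wild type (log2 difference 0.37 ± 0.29, SE; edgeR adjusted p = 0.703). A count over the whole gene does not check the labels when the mutated part is unknown. Gene counts per library summed to between 13627501 and 30544144. Ribosomal RNA made up 17.5% of wild type replicate 3, 6.2% of knockout replicate 6 and no more than 1.51% of any other library. The 19 microglial markers together made up between 37665 and 57483 CPM of all gene counts in wild type and between 41121 and 46518 CPM in the knockout-labelled libraries. Gad1 and Gad2, the defining genes of the labelled neurons, lay between 36.8 and 178 CPM and between 23.8 and 134 CPM, in that order. Csf1r and Cx3cr1, markers of microglia, averaged 8524 and 4245 CPM, so microglial transcripts far exceeded those of the labelled neurons. Marker sums here and below are in CPM of total gene counts.

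Microglia are the resident macrophages of the brain. In them, the pair of Itgam and Itgb2 is known as the receptor for the complement fragment iC3b and takes part in the removal of synapses, and CD11b, the protein of Itgam, is the antigen most often used to sort these cells. Pairs of Itgav with a beta subunit bind the RGD motif of vitronectin and of Mfge8, the bridging protein that marks dying cells for uptake, and some of them activate latent TGF-beta. Pairs with Itgb1 bind laminin, fibronectin, tenascin and Vcam1, depending on the alpha subunit.

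None of the 10 genes differed between the groups at an edgeR adjusted p of 0.05 (Benjamini-Hochberg over all genes tested), whereas 0.00581% of the 17221 genes tested did so, which is the single gene Rpsa-ps10. At an unadjusted p under 0.05, 1 of the 10 passed, as lower, against 7.25% of all genes tested and 2.77% as lower. That count was 0 with total gene counts, with scaling by microglial markers, and without wild type replicate 3 or knockout replicate 5 or 6. It was 1 without wild type replicate 1 (3227 of 17320 over all genes) or knockout replicate 7 (1264 of 17226). Without wild type replicate 4 it was 4, with Itgb2, Itgb5, Itga9 and Itgax all lower. In that fit 3087 of 17991 genes tested reached that p. The median log2 fold change of the 10 genes (libraries labelled knockout over wild type) was -0.23, against -0.03 over all genes tested. The 19 microglial markers had a median of -0.24, with 0 of 19 positive, and their part in the values of the 10 genes was not tested. The sign of 3 of these changes, those of Itgav, Itgal and Itgb1, rested on the scaling. Of the 10, 9 were negative after TMM normalization, against 53.7% of all genes tested, but 6 of 10 when libraries were scaled by their total gene counts or by their microglial markers. With these scalings the median over all genes moved from -0.03 to 0.11 and 0.16, and that of the 10 genes to -0.08 and -0.03. In bulk libraries, fewer cells of a type and less RNA per cell cannot be told apart.

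Itgb5, a beta subunit that pairs with Itgav, had the highest level of the 10 per exonic kilobase. The gene (ENSMUSG00000022817.14) lies on the plus strand of chromosome 16 from 33829665 to 33949338 in GRCm38. It stood at 1674, 1866 and 1187 CPM for wild type, against 1125, 1308 and 1295 CPM for knockout-labelled libraries. Wild type replicates 1 and 3 lay above all others and wild type replicate 4 fell among the knockout-labelled libraries, so the groups overlapped. Its log2 fold change came to -0.34 ± 0.21 (SE; edgeR adjusted p = 0.661), with 0.558 to 1.11 as the 95% interval of the fold. Per exonic kilobase, Itgb5 ranked 32 among 21865 protein-coding genes.

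Itgb1, the beta subunit shared by the largest number of alpha partners, varied least of the 10 after TMM scaling (ENSMUSG00000025809.15, plus strand of chromosome 8, 128685654 to 128733200). Its levels of 467, 385 and 362 CPM for wild type, against 340, 426 and 365 CPM for knockout-labelled libraries, had a coefficient of variation of 12% over the 6 libraries, although on total gene counts its 13.1% was above the values of Itga6, Itgam, Itgb5, Itgb2 and Itgav, which lay between 8.42% and 12.9%. The groups overlapped. The fold was 0.931, with a 95% interval from 0.712 to 1.22 (edgeR adjusted p = 0.854).

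Itgb2, which encodes CD18, the beta subunit restricted to leukocytes, lies on the plus strand of chromosome 10 from 77530252 to 77565708 (ENSMUSG00000000290.13). It stood at 285, 338 and 213 CPM in the wild type libraries, against 194, 220 and 244 CPM in those labelled knockout. As with Itgb5, replicates 1 and 3 were high and replicate 4 was low within wild type. The change was -0.35 ± 0.20 on the log2 scale (SE; edgeR adjusted p = 0.645), and leaving out 1 library moved it between -0.50 on removal of wild type replicate 4 (edgeR adjusted p = 0.2) and -0.18 on removal of wild type replicate 3 (edgeR adjusted p = 1).

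Itgam, Itgax and Itgal are alpha partners of Itgb2. Of these 3, Itgam had a level near that of Itgb2 per exonic kilobase, while Itgax and Itgal were low. Itgam (ENSMUSG00000030786.18, plus strand of chromosome 7, 128062640 to 128118491) encodes CD11b. It stood at 351, 341 and 267 CPM in the wild type libraries, against 229, 308 and 282 CPM in those labelled knockout. The groups overlapped. On the log2 scale they differed by -0.23 ± 0.18 (SE; edgeR adjusted p = 0.703), with a 95% interval of the fold from 0.641 to 1.14.

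Much of Itgam lies on exons that the annotation gives to a second gene as well. The gene Gm49368 (plus strand of chromosome 7) spans the same locus and shares 3450 of the 5024 exonic bases of Itgam, or 68.7%. Gm49368 is in the count files with at most 7 counts in any library, against 3761 to 10100 for Itgam. From these few counts it was inferred that reads matching more than 1 gene were set aside as ambiguous and entered neither count. The sources used here do not state this setting. Reads called ambiguous made up 1.94% to 14.45% of reads, most in wild type replicate 3 (14.45%) and knockout replicate 6 (8.63%). How many of them came from Itgam was not tested. Over all exons Itgam had 59.0 RPKM (TMM-scaled CPM for each kilobase of exon, range 45.6 to 70.0 over the 6 libraries), and over its 1574 unshared bases 188 RPKM (146 to 223). No other of the 10 genes shares exonic bases with a gene on the same strand. Itgav and Itga4 share 5.9% and 8.04% of theirs with the antisense genes Gm13684 and Cerkl, which had at most 1 and 14 counts.

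Itgax, which encodes CD11c and is known from dendritic cells and from activated microglia, is the neighbour of Itgam (ENSMUSG00000030789.9, plus strand of chromosome 7, 128129547 to 128150657) and begins 11055 bases beyond its end. It stood at 9.92, 22.8 and 3.60 CPM in the wild type libraries, against 6.72, 7.97 and 10.9 CPM in those labelled knockout. All 3 libraries labelled knockout lay inside the wild type range, which was set by replicate 3 at the top and replicate 4 at the bottom. The change of -0.49 ± 0.59 on the log2 scale (SE; edgeR adjusted p = 0.803) turned to 0.34 without wild type replicate 3 and to -0.91 without wild type replicate 4. The 10 markers of dendritic cells summed to between 1080 and 1435 CPM in wild type and between 999 and 1267 CPM in the other group, most of it Siglech, a gene that is also in the microglial list, and Cd7 was at 0 in all 6 libraries. The part of dendritic cells in the Itgax count was not tested.

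Itgam and Itgax are shown here by the 250 bases before their RefSeq start because these neighbours, with 59.0 and 2.15 RPKM, differ so widely in level, and Itgb5 because it is the highest. The sequences are RefSeq's for GRCm38.p6, at chr7:128062390-128062639, chr7:128129300-128129549 and chr16:33829415-33829664, all on the plus strand. RefSeq starts Itgax at 128129550, so that stretch runs 3 bases past the GENCODE start given above. Capitals mark GAGGAA, the core bound by the myeloid factor PU.1, and GGGCGG, the GC box, on either strand, with no overlap between the matches.
Itgam: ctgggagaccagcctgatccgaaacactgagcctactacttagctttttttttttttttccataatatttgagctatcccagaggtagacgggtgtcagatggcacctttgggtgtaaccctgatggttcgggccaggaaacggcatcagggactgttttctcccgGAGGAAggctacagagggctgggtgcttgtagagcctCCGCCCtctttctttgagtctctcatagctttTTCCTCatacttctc
Itgax: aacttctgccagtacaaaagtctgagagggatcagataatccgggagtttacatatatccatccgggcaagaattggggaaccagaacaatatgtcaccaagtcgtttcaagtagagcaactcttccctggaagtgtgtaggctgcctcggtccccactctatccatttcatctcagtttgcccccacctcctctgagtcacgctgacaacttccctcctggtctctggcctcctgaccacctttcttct
Itgb5: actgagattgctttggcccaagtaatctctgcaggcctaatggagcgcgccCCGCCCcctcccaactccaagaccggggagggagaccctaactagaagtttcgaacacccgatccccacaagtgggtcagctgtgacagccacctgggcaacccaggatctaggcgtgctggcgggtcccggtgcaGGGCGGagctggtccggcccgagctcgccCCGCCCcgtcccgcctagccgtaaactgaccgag
The Itgam stretch holds GAGGAA in 2 places, whose first bases lie 84 and 15 bases before the start, and GGGCGG in 1 place. The Itgb5 stretch holds GGGCGG in 3 places and no GAGGAA, and the Itgax stretch has neither. Among 32851 such stretches of equal length, 23.3% held GAGGAA and 32.7% held GGGCGG, so each match is a common one. RefSeq's table held 7 of the 10 genes, without Itgb2, Itgal and Itga6.

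Itgal, which encodes CD11a, the alpha subunit of the lymphocyte receptor for Icam1, had the fewest reads of the 10 (ENSMUSG00000030830.18, plus strand of chromosome 7, 127296260 to 127335138). Its counts were 30, 8 and 12 for wild type against 18, 7 and 35 for those labelled knockout, or between 0.419 and 1.09 CPM. The groups overlapped, and the 95% interval of the fold, from 0.419 to 1.97, was wide (edgeR adjusted p = 0.933). Markers of T, NK and B cells were scarce too. Of 16 such markers, Trbc1, Cd8a, Nkg7, Ncr1 and Ms4a1 were at 0 in all 6 libraries, and the whole list summed to between 20 and 31.3 CPM in wild type and between 17.9 and 27.0 CPM in the knockout-labelled libraries, most of it Cd79b. The part of these cells in the Itgal count was not tested.

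Itgav, the alpha partner of Itgb5, lies on the plus strand of chromosome 2 from 83724397 to 83806916 (ENSMUSG00000027087.11). It stood at 280, 418 and 251 CPM in the wild type libraries, against 237, 291 and 337 CPM in those labelled knockout. After TMM scaling, wild type replicate 3 stood above all other libraries, and the other 5 were intermixed. As CPM of total gene counts, knockout replicate 7, at 353 CPM, lay above wild type replicate 3, at 339 CPM. The change of -0.14 ± 0.23 on the log2 scale (SE; edgeR adjusted p = 0.863) turned to 0.12 without wild type replicate 3.

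Itga6, a laminin receptor when paired with Itgb1, had the most reads of the alpha subunits (ENSMUSG00000027111.15, plus strand of chromosome 2, 71745616 to 71858416). It stood at 875, 894 and 723 CPM in the wild type libraries, against 609, 782 and 727 CPM in those labelled knockout. The lowest wild type library lay below 2 of the knockout-labelled libraries. Its log2 change of -0.24 ± 0.17 did not pass (SE; edgeR adjusted p = 0.695).

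Itga9, which pairs with Itgb1 and binds tenascin-C, osteopontin and Vcam1, had the smallest p of the 10 (ENSMUSG00000039115.13, plus strand of chromosome 9, 118606690 to 118901003). It stood at 233, 296 and 304 CPM in the wild type libraries, against 171, 186 and 225 CPM in those labelled knockout. All 3 libraries labelled knockout lay below all 3 of wild type. It was the 1 gene of the 10 with groups that did not overlap, against 13% of all genes tested, 6.68% as lower and 6.34% as higher. The log2 fold change was -0.52 ± 0.17 (SE; unadjusted edgeR p = 0.0174, adjusted p = 0.637), and by exact permutation the two-sided p was 0.1, the smallest that 3 against 3 allows.

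The separation of Itga9 did not hold with total gene counts or relative to microglial markers. As CPM of total gene counts, knockout replicate 7, at 235 CPM, lay above wild type replicate 1, at 232 CPM. The unadjusted edgeR p of Itga9 was 0.082 with total gene counts and 0.252 with scaling by microglial markers. Leaving out 1 library at a time kept the log2 change after TMM scaling between -0.63 and -0.44, and the smallest edgeR adjusted p over all alternatives was 0.117, reached without wild type replicate 1. Wild type replicates 3 and 4, the highest for Itga9, were also the libraries with the lowest astrocyte markers. The 16 astrocyte markers summed to 604 and 364 CPM there, to 3895 CPM in wild type replicate 1 and to between 3814 and 7758 CPM in the knockout-labelled libraries. The part of this difference in the Itga9 values was not tested.

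Itga4, a receptor for Vcam1 and fibronectin that blood monocytes and lymphocytes use to enter tissue, was low and was the only 1 of the 10 with a positive change after TMM normalization (ENSMUSG00000027009.18, plus strand of chromosome 2, 79255426 to 79333123). It stood at 14.1, 9.24 and 7.59 CPM in the wild type libraries, against 9.42, 9.83 and 16.1 CPM in those labelled knockout. The change was 0.19 ± 0.32 on the log2 scale (SE; edgeR adjusted p = 0.859) and turned to -0.09 without knockout replicate 7. Ccr2, a defining receptor of blood monocytes, lay between 2.10 and 8.41 CPM, and Ly6g and Mmp8 of neutrophils were at 0 in all 6 libraries. The 10 monocyte markers summed to between 102 and 382 CPM in wild type and between 318 and 463 CPM in the knockout-labelled libraries, most of it Vcan and Nr4a1, and the 10 neutrophil markers to at most 11.9 CPM. Their part in the Itga4 count was not tested.

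**Figure D1:**
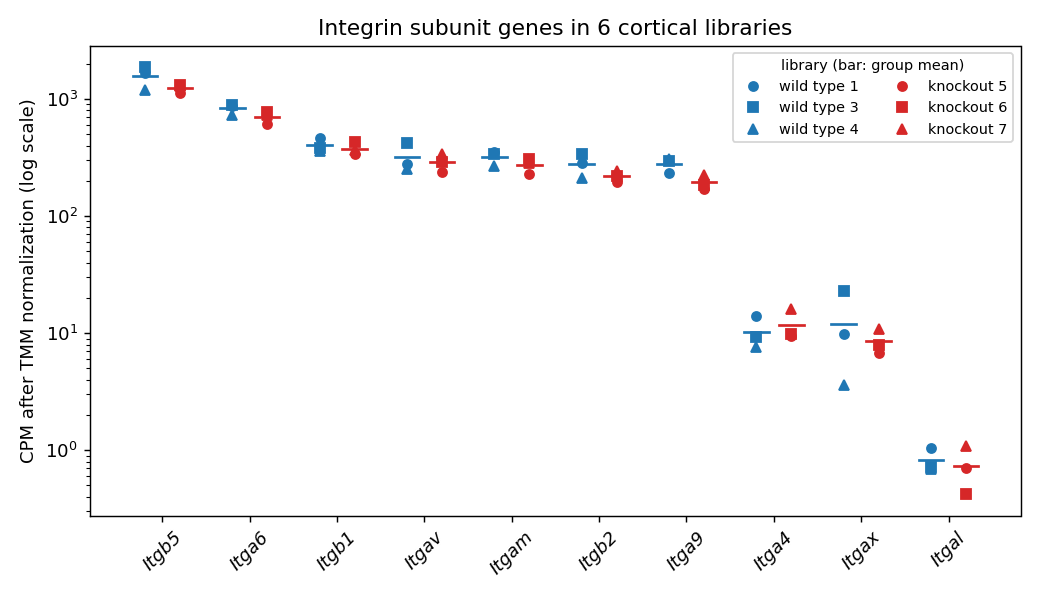
Level of each of the 10 integrin genes in CPM after TMM normalization, on a log axis, with 1 symbol per library and a bar at each group mean (3 libraries a group). Itgb5 lies between 1125 and 1866 CPM, 6 genes lie between 171 and 894 CPM, and Itga4, Itgax and Itgal lie far lower, with overlapping groups for all genes except Itga9.

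Compared per length, the 10 genes fell into a high, a middle and a low tier. Itgb5 had 397 RPKM over its union of exons (range 317 to 525). It was followed by Itgb1 with 95.8, Itga6 with 85.1, Itgb2 with 81.7 and Itgam with 59.0 RPKM, then by Itga9 with 30.7 and Itgav with 28.1 RPKM. Itgax had 2.15, Itga4 0.79 and Itgal 0.118 RPKM.

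Neighbours in this order were not all distinct. The ranges over libraries overlapped between Itgb1 and Itga6, between Itga6 and Itgb2, between Itgb2 and Itgam, between Itga9 and Itgav, and between Itgax and Itga4. Compared within each library over the union of exons, Itgb2 stood above Itgam and Itgax above Itga4 in all 6. Itgb1 stood above Itga6, and Itga6 above Itgb2, in 5 of the 6 libraries, and Itga9 above Itgav in 3. The gaps below Itgb5, below Itgam, below Itgav and below Itga4 exceeded the spread of the libraries. The choice of length moved the middle of the order. With the longest transcript in place of the union of exons, Itga6 rose to 178 RPKM (141 to 208), above Itgb1 with 102 RPKM (89.2 to 122), because its union of 9025 bases is long beside its longest transcript of 4310 bases. Itgam over its unshared bases, with 188 RPKM, also stood above Itgb1. Itgb5 stayed first under each of these lengths.

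Together the 10 genes held between 95.5% and 97.4% of the reads per exonic kilobase on the 26 integrin genes. Among 8 beta subunits, Itgb5 took 66.7% (65.5% to 70.2% over the libraries), Itgb1 16.4% (12.6% to 18.6%) and Itgb2 13.7% (12.8% to 14.8%). Itgb3, which pairs with Itgav or, in platelets, with Itga2b, took 2.3%. Among 18 alpha subunits, Itga6 took 39.6% (38.2% to 41.3%), Itgam 27.4% (25.5% to 29.7%), Itga9 14.2% (11.5% to 19%) and Itgav 13% (11.1% to 15.0%). Counted over unshared bases, Itgam took 54.5% (52.2% to 57.4%) and Itga6 24.7% (24.1% to 25.2%), so the leading alpha transcript depended on how the shared exons were treated.

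**Figure D2:**
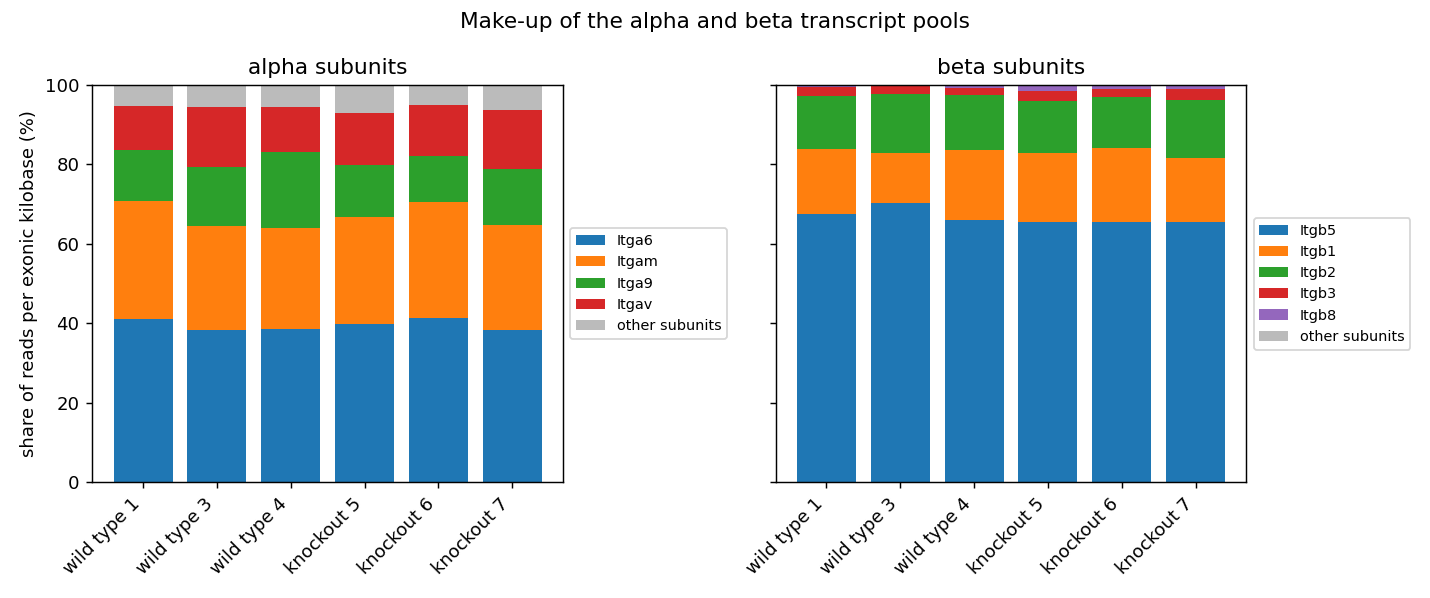
Share of reads per exonic kilobase (union of exons, in %) that each alpha subunit (left) and each beta subunit (right) took, as 1 stacked bar per library with the scarcest subunits joined. Itgb5 holds between 65.5% and 70.2% of the beta pool and Itga6 between 38.2% and 41.3% of the alpha pool. The share of Itgam is over all its exons, including those that Gm49368 shares.

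Ratios between known partners do not depend on the scaling of libraries, and none of the 8 compared passed a test between the groups (exact permutation tests, two-sided, smallest p = 0.2 for Itga6 over Itgb1, Benjamini-Hochberg adjusted p = 0.9 for all 8). With 3 libraries a group the test cannot go below 0.1. Itgam over Itgb2 was 0.748, 0.612 and 0.760 in wild type and 0.717, 0.851 and 0.701 in the knockout-labelled libraries. The groups overlapped and the mean over all 6 was 0.731. Over unshared bases the mean of this ratio was 2.33, so these counts do not settle whether Itgam or Itgb2 was the more abundant transcript.

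Itgax over Itgb2 was 0.0248 on average and Itgal over Itgb2 0.00147. Itgav was scarce beside Itgb5, at 0.0665 ± 0.00988 in wild type and 0.0764 ± 0.00854 in the knockout-labelled libraries (SD, n = 3 each; log2 difference 0.21 ± 0.16, SE). Itgav is the known partner of Itgb5, whose transcript exceeded that of Itgav in all 6 libraries. Of the partners of Itgb1, Itga6 reached a ratio of 0.89, Itga9 0.324, Itgav 0.296 and Itga4 0.00827. The ratio of Itga9 to Itgb1 was 0.265, 0.407 and 0.446 in wild type and 0.267, 0.232 and 0.327 in the knockout-labelled libraries, so the groups overlapped here as well.

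Set against the microglial markers of the same library, 4 of the 7 well expressed members varied less than in CPM of total gene counts. Itgb5 had 28.9, 33.9 and 33.3 reads per 1000 marker reads in wild type and 30.4, 28.1 and 30.7 in the knockout-labelled libraries. Its coefficient of variation over the 6 libraries was 7.5%, against 11.8% in CPM of total gene counts and 20.9% in CPM after TMM normalization. For Itgam it was 8.08%, against 11% and 15.6%, with values of 6.07, 6.19 and 7.49 in wild type and 6.19, 6.62 and 6.68 in the knockout-labelled libraries. Itgb2 varied by 10.8% and Itgb1 by 12.5%, against 11.9% and 13.1% in CPM of total gene counts. Itga6 and Itgav varied more on this scale than in CPM of total gene counts, by 10.3% against 8.42% and by 16.8% against 12.9%.

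Itga9 varied most among the 7 well expressed genes. It varied by 31.9% relative to the microglial markers, more than the 20.9% in CPM of total gene counts, from 3.99 in knockout replicate 6 to 8.55 in wild type replicate 4. Its log2 difference on this scale was -0.30, and ran from -0.55 without wild type replicate 1 to -0.011 without wild type replicate 4. The groups overlapped for all 10 genes on this scale, and the smallest exact permutation p was 0.3 (two-sided, Benjamini-Hochberg adjusted p = 1 for all 10).

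**Figure D3:**
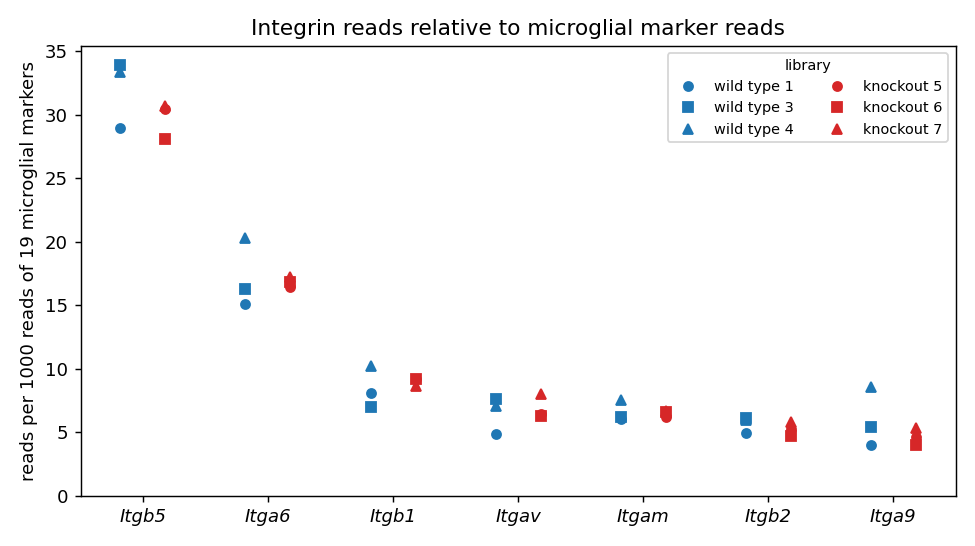
Reads of the 7 most abundant members per 1000 reads of 19 microglial markers in the same library, with 1 symbol per library. Itgb5 lies between 28.1 and 33.9 and the groups overlap for each gene, with Itga9 of wild type replicate 4, at 8.55, far above the other libraries.

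Of the other integrin subunits Itgb3 had the highest mean level, 13.6 RPKM, which lay between those of Itgav and Itgax. Itgb8, Itga5 and Itgae, with 4.27, 3.38 and 3.26 RPKM, also lay above Itgax. Of the 16, 13 passed the filter on low counts, and Itga2, Itga11 and Itgb6 did not. None passed at an edgeR adjusted p of 0.05, and 3 were higher at an unadjusted p under 0.05, against 4.48% of all genes tested in that direction. Leaving out 1 library gave 0 higher without knockout replicate 5, 1 without wild type replicate 3 or knockout replicate 7, 2 without wild type replicate 4 or knockout replicate 6 and 5 without wild type replicate 1. Over all genes, in either direction, 299 of 17082 reached that p without knockout replicate 5 and 3227 of 17320 without wild type replicate 1. Without wild type replicates 3 and 4 it was 575 of 18105 and 3087 of 17991. Without knockout replicates 6 and 7 it was 875 of 18091 and 1264 of 17226. Itgb8, which with Itgav activates TGF-beta and is known from astrocytes and oligodendrocyte precursors, stood at 41.0, 15.0 and 35.1 CPM in the wild type libraries, against 80.4, 60.3 and 51.8 CPM in those labelled knockout (1.07 ± 0.36 on the log2 scale, SE; edgeR adjusted p = 0.637). Its groups did not overlap, as for 6.34% of all genes tested in that direction. Itga7, a laminin receptor, stood at 6.44, 2.45 and 1.48 CPM in the wild type libraries, against 22.5, 4.43 and 11.7 CPM in those labelled knockout, with overlap. Itga3, also a laminin receptor, had between 0.363 and 1.01 CPM in wild type and between 1.56 and 1.92 CPM in the knockout-labelled libraries, without overlap.

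The 12 markers of oligodendrocyte precursors summed to 296, 11.2 and 133 CPM for wild type, against 532, 379 and 261 CPM for knockout-labelled libraries. Wild type replicate 3 was lowest and knockout replicate 5 highest both for this sum and for Itgb8. Log2 fold changes of astrocyte markers were positive for 16 of 16 (median 1.68). No marker of either list passed at an edgeR adjusted p of 0.05. Of the 16 astrocyte markers, 7 were higher at an unadjusted p under 0.05, against 4.48% of all genes tested. The part of both cell types in the Itgb8, Itga7 and Itga3 values was not tested. The other measured subunits with over 10 CPM were Itgb3, with 59.4 to 94.2 CPM in wild type and 68.5 to 97.9 CPM in the knockout-labelled libraries, Itga5, the fibronectin receptor subunit, with 11.4 to 20.9 CPM over all libraries, and Itgae with 11.9 to 19.2 CPM. Itga1, Itga2b, Itga8, Itga10, Itgad, Itgb4 and Itgb7 had at most 7.4 CPM in any library.

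**Figure D4:**
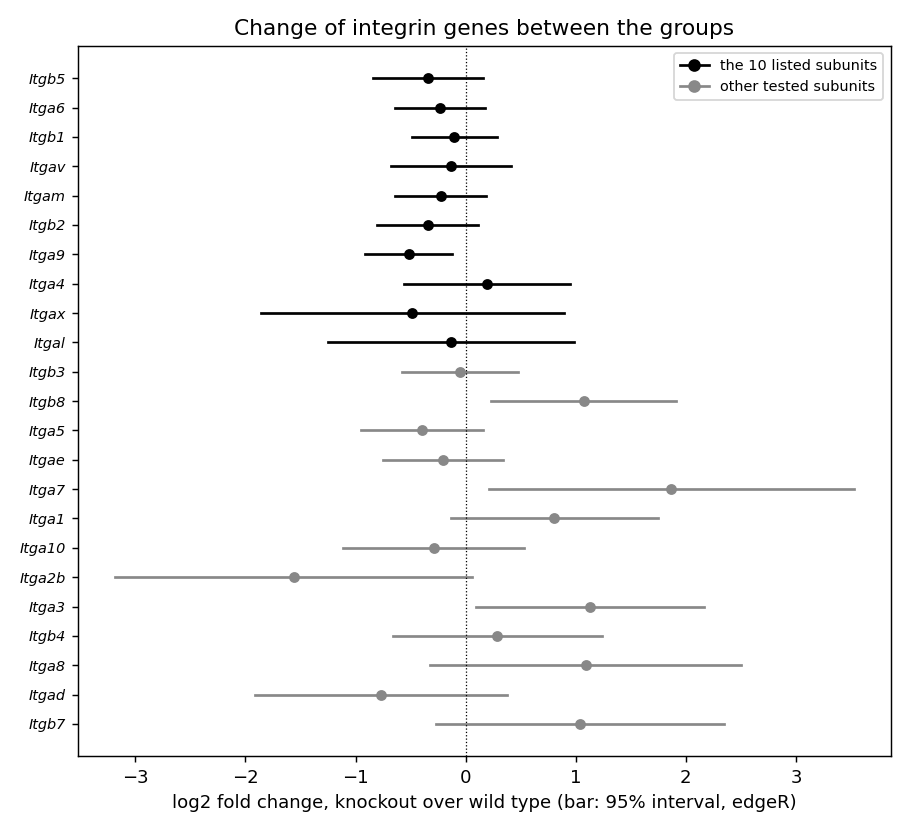
Log2 fold change (knockout-labelled over wild type) with its 95% interval (edgeR) for the 10 listed integrin genes (black) and the 13 other integrin genes tested (grey), each set ordered by mean CPM. The interval of Itga9 lies below 0 and those of Itgb8, Itga7 and Itga3 lie above 0, but no gene passes after adjustment over all genes.

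Genes that act with integrins, inside the cell or in its membrane, also showed no call between the groups. Of 33 tested activators and adaptors (35 listed), 0 passed at an edgeR adjusted p of 0.05 in either direction, and 2 were higher and 3 lower at an unadjusted p under 0.05, against 4.48% higher and 2.77% lower of all genes tested. The 3 lower became 1 with total gene counts, 0 with scaling by microglial markers and 0 without wild type replicate 3. They became 1 without knockout replicate 5 or 6 and 7 without wild type replicate 1, wild type replicate 4 or knockout replicate 7. Over all genes, in either direction, 299 of 17082 and 875 of 18091 had an unadjusted p under 0.05 without knockout replicates 5 and 6. It was 3227 of 17320 and 3087 of 17991 without wild type replicates 1 and 4, and 1264 of 17226 without knockout replicate 7. With total gene counts it was 993 of 17221, and with scaling by microglial markers 1194 of 17221. Without wild type replicate 3 it was 575 of 18105. The median log2 fold change of the activators and adaptors was -0.19, which moved to -0.02 with total gene counts and to 0.06 with scaling by microglial markers. Talin, encoded by Tln1, which links beta tails to actin and switches integrins on, had the most reads of them with 948 ± 94.7 and 722 ± 170 CPM (SD, n = 3 each; edgeR adjusted p = 0.638). Cd81, a tetraspanin, had 803 ± 238 and 690 ± 47.6 CPM, and the actin crosslinker Flna had 420 ± 106 and 435 ± 35.3 CPM (SD, n = 3 each).

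The adaptors with the smallest p went in both directions. Parvg, the parvin of blood cells that couples integrins to actin, stood at 220, 265 and 221 CPM in the wild type libraries, against 134, 165 and 182 CPM in those labelled knockout (-0.55 ± 0.16 on the log2 scale, SE; edgeR adjusted p = 0.637). The groups did not overlap for Parvg, as for 6.68% of all genes tested in that direction. Zyx, an adhesion protein, had a log2 fold change of -0.46 ± 0.19. Fermt2, the kindlin of cells other than blood cells, stood at 23.9, 8.61 and 14.6 CPM in the wild type libraries, against 54.6, 32.2 and 37.0 CPM in those labelled knockout (1.38 ± 0.37 on the log2 scale, SE; edgeR adjusted p = 0.637), and Vcl, the gene of vinculin, had a log2 fold change of 0.95 ± 0.28. For Fermt2 and Vcl the groups did not overlap, as for 6.34% of all genes tested in that direction. With wild type replicate 1 removed, Fermt2 and Lims2 passed as higher (edgeR adjusted p = 0.0478 and 0.047), but then 321 genes were called in place of 1.

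Of 29 tested kinases and exchange factors downstream of integrins, 0 passed, and 1 was higher and 0 lower at an unadjusted p under 0.05, against 4.48% higher and 2.77% lower of all genes tested. Without wild type replicate 4 there were 3 higher and 5 lower, without wild type replicate 1 there were 1 and 2, and without knockout replicate 7 there were 0 and 3. Without wild type replicate 3 or knockout replicate 5 there were 0 in both directions. Over all genes, the counts in either direction were 3087 of 17991 and 3227 of 17320 without wild type replicates 4 and 1. They were 1264 of 17226 and 299 of 17082 without knockout replicates 7 and 5, and 575 of 18105 without wild type replicate 3. Lyn, a Src family kinase of myeloid cells, had 605 ± 115 and 503 ± 67 CPM, and Elmo1, a regulator of Rac in engulfment, had 657 ± 80.5 and 513 ± 71.2 CPM (SD, n = 3 each). Dock2, the exchange factor for Rac in leukocytes, had 577 ± 68.5 and 431 ± 75.5 CPM (-0.42 ± 0.18 on the log2 scale, SE; edgeR adjusted p = 0.637). The groups did not overlap for Dock2, as for 6.68% of all genes tested in that direction. Syk had a log2 fold change of -0.35 ± 0.17 and Rac2 of -0.41 ± 0.18, and both had overlapping groups. Bcar1, a docking protein of focal adhesions with a mean of 5.58 CPM, had a log2 fold change of 1.25 ± 0.46. The groups did not overlap for Bcar1, as for 6.34% of all genes tested in that direction. The median of the list was -0.18, and -0.02 with total gene counts.

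Of 34 tested integrin ligands (40 listed), 0 passed, 8 were higher and 1 was lower at an unadjusted p under 0.05, against 4.48% higher and 2.77% lower of all genes tested, and the median log2 fold change was 0.57. Single libraries moved the count of higher ligands from 2, without knockout replicate 5, and 3, without wild type replicate 3, to 16, without wild type replicate 1. F11r and Icam1, both ligands of leukocyte integrins, were among the 3 with the most reads, with 395 ± 86.1 and 317 ± 37.5 CPM and with 147 ± 30.1 and 127 ± 13.6 CPM (SD, n = 3 each). Tnc, the gene of the Itga9 ligand tenascin-C, stood at 6.85, 2.72 and 3.99 CPM in the wild type libraries, against 16.9, 7.43 and 11.8 CPM in those labelled knockout (1.39 ± 0.43 on the log2 scale, SE; edgeR adjusted p = 0.637). The laminin genes Lamc1 and Lama2 had log2 fold changes of 0.48 ± 0.14 and 1.60 ± 0.51, and Ltbp1, which anchors latent TGF-beta in the matrix, of 1.60 ± 0.55. For Tnc, Lamc1 and Ltbp1 the groups did not overlap, as for 6.34% of all genes tested in that direction, and for Lama2 they did.

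Nrros, which holds latent TGF-beta on microglia for activation by integrins, was the 1 ligand lower at an unadjusted p under 0.05 after TMM scaling. With total gene counts, with scaling by microglial markers, and on removal of wild type library 3 or of knockout-labelled library 5 or 6, 0 ligands were lower at that level. It stood at 228, 222 and 236 CPM in the wild type libraries, against 185, 182 and 179 CPM in those labelled knockout, with groups that did not overlap on this scale, as for 6.68% of all genes tested in that direction (-0.33 ± 0.12 on the log2 scale, SE; edgeR adjusted p = 0.637). The 20 endothelial and mural markers, which mark a known source of laminins, summed to 204, 105 and 82.1 CPM for wild type, against 301, 193 and 263 CPM for knockout-labelled libraries, and 18 of 19 tested were positive. The part of these cells and of astrocytes in the ligand values was not tested. Without wild type replicate 1, Ccn1 and Ltbp1 passed as higher (edgeR adjusted p = 0.0422 and 0.0414). In that fit 321 of 17320 genes tested passed, 306 of them as higher, in place of 1.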

How the data were processed

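The authors deposited raw read counts per gene, 1 file for each library, without normalization. Trim Galore 0.60, STAR 2.7, HTSeq 1.31 and build mm10 are named per the submitters' processing notes. Libraries came from a stranded total RNA kit, per the labels' protocols, with annotation release and strand setting not given in the sources used here. The 5 summary lines of each file stayed out of totals. Among them were 40.0% to 58.2% of reads that the counter assigned to no feature and 1.94% to 14.45% that it called ambiguous. Of 53379 identifiers 53274 matched GENCODE M21 (GRCm38). Lengths are unions of exons from that release.

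The 10 members and all gene lists were chosen with earlier results of these data known. Groups were compared with the quasi-likelihood test of edgeR 4.0.16 in R 4.3.3 (TMM, default expression filter, robust shrinkage, Benjamini-Hochberg over 17221 genes, threshold 0.05), tested on simulated data. Single values were compared by exact two-sided permutation. No pair of libraries within a group agreed within sampling noise (chi-square per degree of freedom at least 54.9). Besides the members, named genes were, per pathway list, the 4 with the smallest p and the 3 most abundant, and per marker list the 3 most abundant (not all are reported here); marker genes at 0, Rpsa-ps10, Lims2 and Ccn1 were picked once their values had been seen. DESeq2 1.42.0, limma 3.58.1 and other scalings, filters and left-out libraries were alternatives. A count of 0 allows up to 3 counts, or 0.0982 to 0.22 CPM, for counting error only.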

Additional observations from a re-analysis of the deposited data

How the results depend on the processing

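No member passed the threshold under any of the 14 alternatives listed or the 1 added after seeing the data, which left out wild type replicate 3 and knockout replicate 6, the libraries with the most ribosomal RNA. Over all genes, 1 was called as reported, 2 with scaling by microglial markers, 28 with DESeq2, 5 without an expression filter, 0 in the added alternative (470 at an unadjusted p under 0.05), and between 1 and 321 without 1 library. Of 149 member fold changes under alternatives, 134 kept their sign. With total gene counts Itgav turned to 0.040, Itgal to 0.00231 and Itgb1 to 0.034, and with microglial markers they turned to 0.082, 0.11 and 0.097. In the added alternative Itgav turned to 0.11, Itgax to 0.37 and Itgal to 0.043. Without 1 library Itgav ran from -0.27 to 0.12, Itgax from -0.91 to 0.34, Itgal from -0.52 to 0.12, Itga4 from -0.090 to 0.49 and Itgb1 from -0.19 to 0.011. Log2 differences in ratio without 1 library ran from -0.00113 to 0.15 for Itgam over Itgb2, -0.34 to 0.66 for Itgax over Itgb2, -0.16 to 0.46 for Itgal over Itgb2 and -0.19 to 0.24 for Itgav over Itgb1. Relative to microglial markers they ran from -0.070 to 0.082 for Itgam, -0.10 to 0.23 for Itgav, -0.11 to 0.10 for Itga6, -0.41 to 0.61 for Itgax, -0.34 to 0.42 for Itgal and -0.010 to 0.26 for Itgb1. The cause of these turns was not tested. No paired analysis was possible because the groups share no replicate number. Depth limits Itgal most, with 7 to 35 counts a library.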

Other observations

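After TMM normalization the 7 members with a mean of at least 100 CPM had a median coefficient of variation of 20.9% over the 6 libraries, against 16.0% for the 2201 tested genes at that level and 23.6% for all tested genes.

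The 250 bases before the start of Itgav held GAGGAA in 2 places and those of Itgb1 in 1, while those of Itga4 held none. For Itga9, RefSeq's start at 118711692 lies inside the gene as GENCODE places it, from 118606690, and the 250 bases before RefSeq's start held none. TATAAA was in none of the 7 stretches, against 12.4% of all 32851.

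Markers of border-associated macrophages, which share several of these integrins with microglia, summed to 1128, 276 and 454 CPM of total gene counts for wild type against 777, 739 and 870 CPM for knockout-labelled libraries, led by Mrc1, F13a1 and Cd163. None of the 10 passed (edgeR adjusted p of 0.05), nor did any at an unadjusted p under 0.05.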
